A study of Homo sapiens with 32 samples.

Results

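The transcripts examined here encode the chaperonins, ring-shaped machines that enclose a protein while it folds. They comprise the 8 genes for the subunits of the cytosolic chaperonin TRiC (TCP1, CCT2, CCT3, CCT4, CCT5, CCT6A, CCT7 and CCT8) and the 2 genes of the mitochondrial chaperonin, HSPD1 (also called HSP60) and its co-chaperonin HSPE1 (also called HSP10). These 10 genes were chosen by symbol, and not by a threshold on their values, out of the 60107 genes in the count table. Earlier results of these data were known when they were chosen. All 10 were counted in all 32 libraries, with between 164 and 4385 counts per gene and library.

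TRiC is built from a pair of stacked rings, in which each of the paralogous subunits has its own place, and it closes with a built-in lid when ATP is hydrolysed. Actins and tubulins are its best known clients, and prefoldin, a smaller complex, delivers many of them. In the mitochondrial matrix HSPD1 forms the folding chamber and HSPE1 is its detachable lid. Heat shock and other proteotoxic stresses are known to raise HSPD1 and HSPE1 through the transcription factor HSF1.

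RNA came from 2 established human lines, HEK293T, which is of embryonic kidney origin, and U2OS, which is of osteosarcoma origin. The study compared cells exposed to DMSO with cells exposed to camptothecin (CPT), which traps DNA topoisomerase I on DNA, and asked what a loss of ATM, a kinase of the DNA damage response, changes. HEK293T cells were treated for 24 h and recovered for 48 h, and untreated U2OS cells were grown for 72 h, while the labels give no times for CPT in U2OS cells. Libraries are named here by the number in their titles. U2OS DMSO comprised replicates 30 to 33, U2OS CPT replicates 26 to 29, and HEK293T DMSO, as used here for drug and cell line comparisons, replicates 22 to 25. Replicates 18 to 21 are labelled HEK293T ATM KO, but were taken as cells given the ATM inhibitor Ku-55933, since the study's text describes RNAseq of HEK293T cells for the inhibitor only. The remaining libraries are labelled HEK293T CPT (replicates 2, 4, 6 and 8), HEK293T DMSO (3, 5, 7 and 17), U2OS ATM KO (10, 12, 14 and 16) and U2OS WT, for wild type (1, 11, 13 and 15). The knockout was made with CRISPR/Cas9 and a clone was picked, so that a difference between clones and an effect of ATM cannot be told apart.

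For most of the libraries numbered 1 to 17, expression contradicts the label. Of 12 markers of the cell lines, 11 separated replicates 18 to 25 from replicates 26 to 33 (all but SOX2), and by these 11 markers 14 of the 16 libraries numbered 1 to 17 lay nearer the other cell line than the one in their label. The exceptions were replicates 1 and 17. The libraries labelled ATM KO and WT resembled HEK293T, and those labelled HEK293T CPT and DMSO resembled U2OS. An exchange of labels between these sets would give each the cell line it resembles, but the markers used here are of cell lines, and what the cells were treated with was not tested. These libraries are therefore called by their labels, and no direction for CPT or ATM is drawn from them. ATM itself was at 28.8 to 39.8 CPM (counts scaled to 1000000 counts on genes) in the libraries labelled ATM KO and at 21.2 to 34.2 CPM in replicates 11, 13 and 15. It was at 34.2 to 61.7 CPM in the libraries labelled HEK293T CPT and at 53.4 to 68.4 CPM in replicates 3, 5 and 7. The groups overlapped in both sets, and since counts at a 3′ end need not change when an edit disrupts the reading frame, these levels check no label. Libraries held between 1232674 and 6362433 counts on genes.

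Promoter windows are given for the mitochondrial pair, whose genes lie head to head on chromosome 2, and for the TRiC subunits CCT2 and CCT8, which are followed through several comparisons below. Each window holds 250 bases before and 50 bases from the listed start in the RefSeq annotation of GRCh38.p14, written 5′ to 3′ on the strand of the gene. Capitals mark matches, on either strand, to the heat shock element motifs GAANNTTC and TTCNNGAA, to CCAAT, to the E-box CACGTG and to CCGGAAG.
HSPD1, chr2:197499791-197500090, minus strand: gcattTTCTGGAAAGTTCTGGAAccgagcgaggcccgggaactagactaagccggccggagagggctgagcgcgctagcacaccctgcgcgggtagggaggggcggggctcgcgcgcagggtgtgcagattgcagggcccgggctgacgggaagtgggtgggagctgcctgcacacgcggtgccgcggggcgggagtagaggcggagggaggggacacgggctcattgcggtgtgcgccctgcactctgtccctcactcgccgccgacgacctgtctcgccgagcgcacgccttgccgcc
HSPD1, chr2:197500225-197500524, minus strand: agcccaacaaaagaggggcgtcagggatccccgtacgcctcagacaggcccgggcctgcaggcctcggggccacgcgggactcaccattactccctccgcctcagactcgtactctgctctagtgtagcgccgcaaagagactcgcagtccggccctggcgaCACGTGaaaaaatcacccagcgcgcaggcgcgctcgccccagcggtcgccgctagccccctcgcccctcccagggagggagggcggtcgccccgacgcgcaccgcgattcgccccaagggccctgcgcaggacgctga
HSPE1, chr2:197500129-197500428, plus strand: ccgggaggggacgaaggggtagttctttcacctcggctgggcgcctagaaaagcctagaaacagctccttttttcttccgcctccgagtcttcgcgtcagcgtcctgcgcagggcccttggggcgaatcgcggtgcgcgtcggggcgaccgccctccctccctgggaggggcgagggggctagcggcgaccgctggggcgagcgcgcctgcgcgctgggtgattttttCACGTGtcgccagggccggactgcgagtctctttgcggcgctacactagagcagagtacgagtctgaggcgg
CCT2, chr12:69585209-69585508, plus strand: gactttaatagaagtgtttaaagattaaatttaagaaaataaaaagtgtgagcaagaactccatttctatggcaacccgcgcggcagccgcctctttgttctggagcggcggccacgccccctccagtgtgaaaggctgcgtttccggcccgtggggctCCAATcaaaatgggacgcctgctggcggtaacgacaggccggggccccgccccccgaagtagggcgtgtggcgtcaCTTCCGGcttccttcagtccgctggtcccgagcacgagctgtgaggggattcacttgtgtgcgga
CCT8, chr21:29073599-29073898, minus strand: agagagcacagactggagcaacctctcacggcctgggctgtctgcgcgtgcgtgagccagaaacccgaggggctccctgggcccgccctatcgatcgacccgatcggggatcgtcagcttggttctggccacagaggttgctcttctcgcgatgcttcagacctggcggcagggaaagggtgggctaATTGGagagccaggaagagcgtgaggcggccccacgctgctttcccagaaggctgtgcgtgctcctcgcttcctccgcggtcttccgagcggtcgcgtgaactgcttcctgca

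The first HSPD1 window opens with overlapping heat shock motifs, TTCNNGAA at bases 6 to 13 and 16 to 23 and GAANNTTC at bases 11 to 18. The second HSPD1 window shares 204 bases with that of HSPE1, their starts are 105 bases apart (539 for the first HSPD1 window, which shares 0 bases with that of HSPE1), and both hold the same CACGTG (chr2:197500357-197500362). Windows were listed for 9 of the 10 genes, all but CCT6A, and there were 12 windows in all because HSPD1, CCT2 and CCT4 have more than 1 start. GAANNTTC occurred in windows of 3 of the genes (HSPD1, TCP1 and CCT2), against 6.77% of all 35116 windows, and TTCNNGAA in windows of HSPD1 and CCT4, against 7.74%. CCAAT occurred in windows of 4 genes (CCT3, TCP1, CCT2 and CCT8), against 34.6% of all windows, CACGTG in those of HSPD1 and HSPE1, against 7.26%, and CCGGAAG in that of CCT2, against 10.3%. The window listed for CCT5 starts 366 bases inside the gene as annotated by GENCODE 29, and is not shown. The windows of HSPD1, HSPE1, CCT3 and CCT7 and the second of CCT2 also lie wholly inside the genes so annotated. HSPD1, on the minus strand, is annotated up to base 197516737. These matches describe letters only.

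In HEK293T cells given DMSO, HSPD1 was the most abundant of the 10 transcripts, at 548 ± 36.3 CPM (SD, n = 4), and HSPE1 the least abundant, at 121 ± 14.5 CPM. Because QuantSeq counts fragments from the 3′ end, counts do not grow with transcript length, and levels of different genes are compared here as CPM without a length correction. Among TRiC subunits, CCT3 (433 ± 16.1 CPM), CCT5 (391 ± 32.8 CPM), CCT2 (378 ± 16.6 CPM) and CCT6A (373 ± 13.6 CPM) came next, each overlapping its neighbour in this order. CCT8, CCT4 and TCP1 followed, and CCT7 was the lowest subunit at 192 ± 19.3 CPM. All 10 were well expressed: their ranks by mean CPM in these libraries ran from 181 (HSPD1) to 1563 (HSPE1) among 23912 genes with counts.

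**Figure D1:**
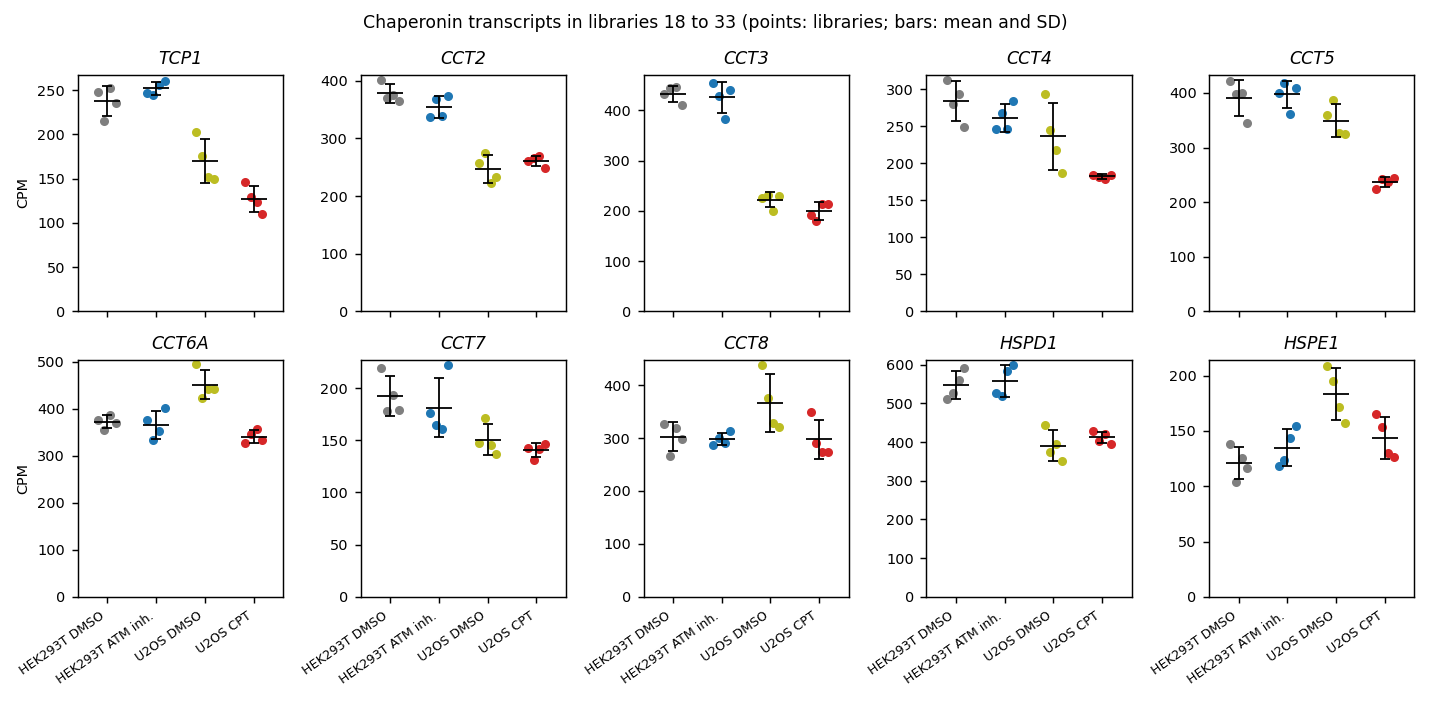
CPM of each chaperonin transcript (vertical axes, from 0) in HEK293T and U2OS libraries numbered 18 to 33, one point a library, with bars for the mean and SD of 4 libraries. CCT5 lies between 224.5 and 245 CPM in U2OS CPT and between 325 and 387 CPM in U2OS DMSO, and CCT3 is lower in all U2OS libraries than in all HEK293T libraries.

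The order differed in U2OS cells. There CCT6A led, at 451 ± 30.96 CPM, followed by HSPD1 (391 ± 39.2 CPM), CCT8 (366 ± 54.4 CPM) and CCT5 (349 ± 30.1 CPM), each overlapping the next. A gap separated these from CCT2 at 247 ± 23.5 CPM, after which CCT4, CCT3, HSPE1, TCP1 and CCT7 each overlapped the next, down to 150.4 ± 14.9 CPM for CCT7. The 8 subunit transcripts, whose products enter the complex in equal numbers, thus spanned a ratio from highest to lowest of 3.03 ± 0.397 in U2OS DMSO and of 2.27 ± 0.222 in HEK293T DMSO (n = 4 each). Together they made up 0.219% ± 0.0195 of counts in U2OS DMSO and 0.259% ± 0.0134 in HEK293T DMSO.

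The comparison of the cell lines under DMSO asked whether their basal chaperonin expression differed. Between U2OS and HEK293T cells, 3 of the 10 transcripts were higher in U2OS (HSPE1, CCT6A and CCT8) and 4 were lower (CCT3, CCT2, TCP1 and HSPD1), with adjusted p under 0.05 over all genes tested. Over all 19739 genes, 32% were called higher and 30.1% lower, so the share of members called is near that of genes at large. Among the 1903 genes over 100 CPM, 42.4% were called higher and 35.5% lower. The members' median log2 fold change was -0.09, against 0.01 over all genes. Line and culture cannot be told apart, and these libraries also serve as controls in the drug comparisons below.

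The mitochondrial lid HSPE1 (chr2:197499994-197503457 in GRCh38, plus strand) had 157, 172, 195 and 209 CPM in the U2OS DMSO libraries and 104, 117, 126 and 138 CPM in HEK293T DMSO. All these U2OS libraries were above these HEK293T libraries, and the edgeR fold change was 1.76 (log2 fold change 0.82, SE 0.11, adjusted p = 8.56e-08). Replicate 17, labelled HEK293T DMSO and with HEK293T markers, was left out of this comparison. It had 244 CPM of HSPE1, above all U2OS DMSO libraries. The partner of HSPE1, HSPD1 (chr2:197486581-197516737, minus strand), the chamber itself, moved the other way. It had 351 to 443 CPM in U2OS and 510.3 to 592 CPM in HEK293T (log2 fold change -0.26, SE 0.10, adjusted p = 0.0251). Replicate 17 had 729 CPM of HSPD1. These groups of 4 did not overlap for either gene, and the share of all genes without overlap between them was not counted. The call for HSPD1 was lost without replicate 31, 24 or 25 (lowest and highest log2 fold change without these -0.27 and -0.22). HSPD1 counts per HSPE1 count, for genes whose listed starts lie 105 or 539 bases apart in the windows printed earlier, were 4.57 ± 0.653 in HEK293T DMSO and 2.14 ± 0.164 in U2OS DMSO. This ratio was 2.99 in replicate 17. The GENCODE 29 annotation lets these genes overlap each other and MOB4, and whether strand was used in counting is not given in the sources used here.

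Within TRiC the cell lines differed by subunit. CCT3 (chr1:156308968-156367873, minus strand) showed the largest difference among the subunits, with 200.1, 226, 229.5 and 232 CPM in U2OS DMSO and 411, 432, 445 and 446 CPM in HEK293T DMSO. No U2OS library came near the HEK293T range (log2 fold change -0.74, SE 0.10, adjusted p = 1.16e-07). CCT2 (chr12:69585334-69601570, plus strand) had 223 to 275 CPM in U2OS and 365 to 402 CPM in HEK293T (log2 fold change -0.39, SE 0.10, adjusted p = 0.00121). TCP1 (chr6:159778498-159789749, minus strand), after which the complex is named, was at 149 to 202 CPM in U2OS and 215 to 252 CPM in HEK293T (log2 fold change -0.27, SE 0.11, adjusted p = 0.0285). Its call was lost without any of replicates 32, 33, 22, 24 and 25, with log2 fold changes from -0.27 to -0.23. TCP1 overlaps ACAT2 on the opposite strand.

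In the other direction, CCT6A (chr7:56051630-56063989, plus strand) had 424 to 496 CPM in U2OS and 355 to 388 CPM in HEK293T, with no overlap (log2 fold change 0.50, SE 0.10, adjusted p = 5.52e-05). CCT8 (chr21:29055805-29073797, minus strand) had 321, 328, 376 and 439 CPM in U2OS and 266, 298, 319 and 327 CPM in HEK293T. Here the groups overlapped on the CPM scale while the TMM-scaled test passed (log2 fold change 0.49, SE 0.11, adjusted p = 1.40e-04). Replicate 17 had 408 CPM of CCT8, within the U2OS DMSO range. The higher CPM of CCT6A and CCT8 in U2OS thus holds against the controls used here and not against replicate 17. For CCT3, CCT2 and TCP1 replicate 17 was at 556, 486 and 282 CPM, above all U2OS DMSO libraries, as these controls were. CCT4 (chr2:61868089-61888804, minus strand), CCT5 (chr5:10249921-10266412, plus strand) and CCT7 (chr2:73233420-73253021, plus strand) did not pass, with log2 fold changes of -0.05, 0.06 and -0.13 and intervals that reached from -0.35 (CCT7) to 0.27 (CCT5). Without TMM factors the median of all genes shifted by -0.223 on the log2 scale. CCT7 was then called lower as well, and 42% of all calls were higher and 58% lower, instead of 51.5% and 48.5%. Of the 19739 genes tested, 5237 were called higher there and 7237 lower.

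**Figure D2:**
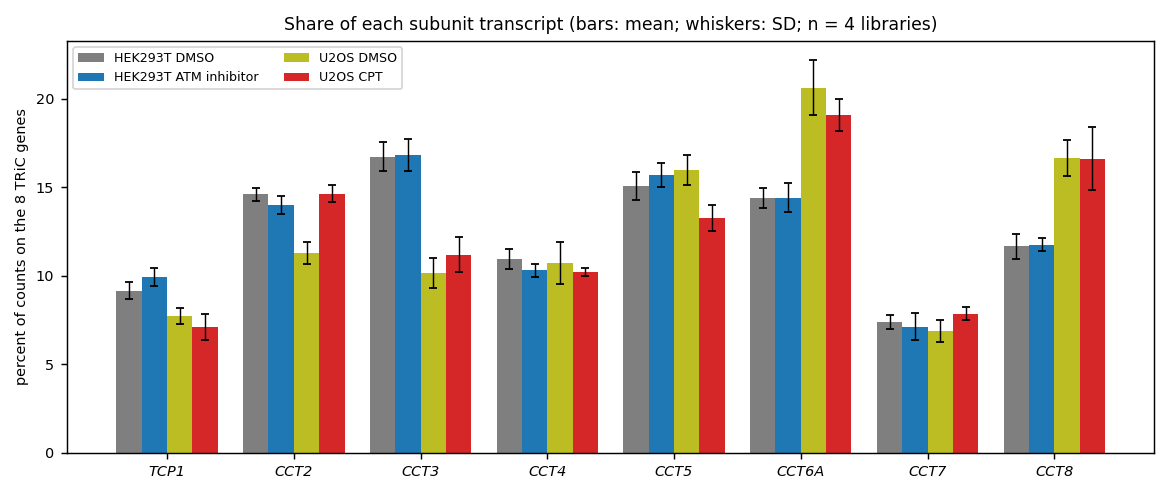
Share of each subunit (horizontal axis) in the counts on the 8 TRiC genes (vertical axis, percent), as the mean of 4 libraries with SD whiskers, in HEK293T and U2OS cells by treatment. CCT3 takes 16.7% in HEK293T DMSO and 10.2% in U2OS DMSO, while CCT6A takes 14.4% and 20.6%.

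Seen as shares of the counts on TRiC genes, which do not depend on library scaling, CCT3 took 16.7% ± 0.811 in HEK293T DMSO and 10.2% ± 0.850 in U2OS DMSO. CCT6A took 14.4% ± 0.574 and 20.6% ± 1.54, and CCT8 11.7% ± 0.702 and 16.6% ± 1.02. In replicate 17 CCT6A took 15.6% and CCT8 12.1%, below their shares in all U2OS DMSO libraries. The share of CCT4 was 10.9% ± 0.546 and 10.7% ± 1.18, and its groups overlapped. The bars of subunit shares show the same pattern, with the treated and untreated cells of a line mostly side by side.

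Genes that work with the chaperonins also differed between the lines. Of the 6 prefoldin genes 1 was called higher and 3 lower in U2OS, among them PFDN2 (log2 fold change -0.60) and VBP1 (-0.51). Of 17 TRiC clients 9 were called higher and 5 lower. The actin ACTB (log2 fold change 1.95) and the tubulin TUBB6 (2.06) were higher, and the tubulin TUBB2B was lower (-1.44). Of 12 genes of mitochondrial protein folding 2 were called higher and 6 lower, including TIMM44, which tethers the import motor (-1.38), DNAJA3, a J-domain partner of mitochondrial HSP70 (-1.29), and GRPEL1, its nucleotide exchange factor (-1.27). Of 9 mitochondrial proteases 2 were called higher and 5 lower, including the matrix proteases CLPP (-1.69) and LONP1 (-1.60) and the inner membrane protease OMA1 (-1.25). Of 7 cofactors and relatives of TRiC 3 were called higher and 2 lower. Among these TXNDC9 was at 24.2 ± 3.71 CPM in U2OS and 8.97 ± 1.30 CPM in HEK293T, and CCT6B, the paralogue of CCT6A, was at 0.146 ± 0.174 and 2.11 ± 0.264 CPM, values at or near the limit of detection (3 counts equal 0.721 to 1.03 CPM in these libraries).

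The comparison of U2OS CPT with U2OS DMSO asked what CPT changed. Of the 10 transcripts only CCT5 was called by edgeR, and it fell. None was called higher, where 2 had an unadjusted p under 0.05 in that direction (CCT2 and HSPD1) and DESeq2 called 2 higher. Over all 19080 genes tested, 16.6% were called higher and 15.3% lower, and among the 1675 genes over 100 CPM 24.9% were called higher and 25.1% lower, and the members' count is given beside these shares without a test. In bulk RNA, less transcript per cell and fewer cells that carry it cannot be told apart. The members' median log2 fold change was -0.14, against 0.01 over all genes.

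CCT5 had 325, 326, 359.7 and 387 CPM in U2OS DMSO and 224.5, 238, 242 and 245 CPM in U2OS CPT. All treated libraries were below all controls. The mean went from 349 ± 30.1 to 237 ± 8.99 CPM (n = 4 each), and edgeR gave a level 23.4% lower (log2 fold change -0.38, SE 0.10, adjusted p = 0.00471). The decrease in CPM is steeper than this because TMM scaling raises the CPT libraries relative to the controls: without TMM factors the median of all genes shifted by -0.167 on the log2 scale. On that scale 34.9% of all calls were higher and 65.1% lower, instead of 52.1% and 47.9%. Of the 19080 genes tested, 2283 were called higher there and 4253 lower. Of the members 6 were called lower, TCP1, CCT4, CCT6A, CCT8 and HSPE1 besides CCT5. CCT5 was the only member called lower with every normalization, filter and test tried.

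The remaining subunits spread to both sides. TCP1 went from 169.7 ± 24.6 to 127 ± 14.8 CPM (log2 fold change -0.23, SE 0.11, adjusted p = 0.121), and CCT6A from 451 ± 30.96 to 341 ± 13.2 CPM (log2 fold change -0.23, SE 0.10, adjusted p = 0.0901). CCT4 had 188, 219, 245 and 295 CPM under DMSO and 179, 182, 185 and 185 CPM under CPT (log2 fold change -0.19, SE 0.11, adjusted p = 0.203). The CPT libraries of these 3 subunits lay below all controls in CPM, but on the TMM scale none passed. The share of all genes that separate in this way was not counted. CCT8 (-0.12), CCT3 (0.02) and CCT7 (0.07) stayed within intervals that included 0.

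CCT2 took the opposite sign, with 223, 233, 257 and 275 CPM under DMSO and 249.5, 260.1, 266 and 270.1 CPM under CPT. The groups overlapped, and the log2 fold change of 0.26 (SE 0.11, adjusted p = 0.0629) missed the threshold, which it passed with DESeq2, with the filterByExpr filter and without replicate 31. Its count per CCT5 count nevertheless separated the groups: it was 0.685 to 0.717 in U2OS DMSO and 1.02 to 1.16 in U2OS CPT, or 0.707 ± 0.0146 and 1.10 ± 0.0614 (n = 4 each). This ratio depends on no scaling. The pair was chosen after its values were seen, and the ratio is given without a test.

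**Figure D3:**
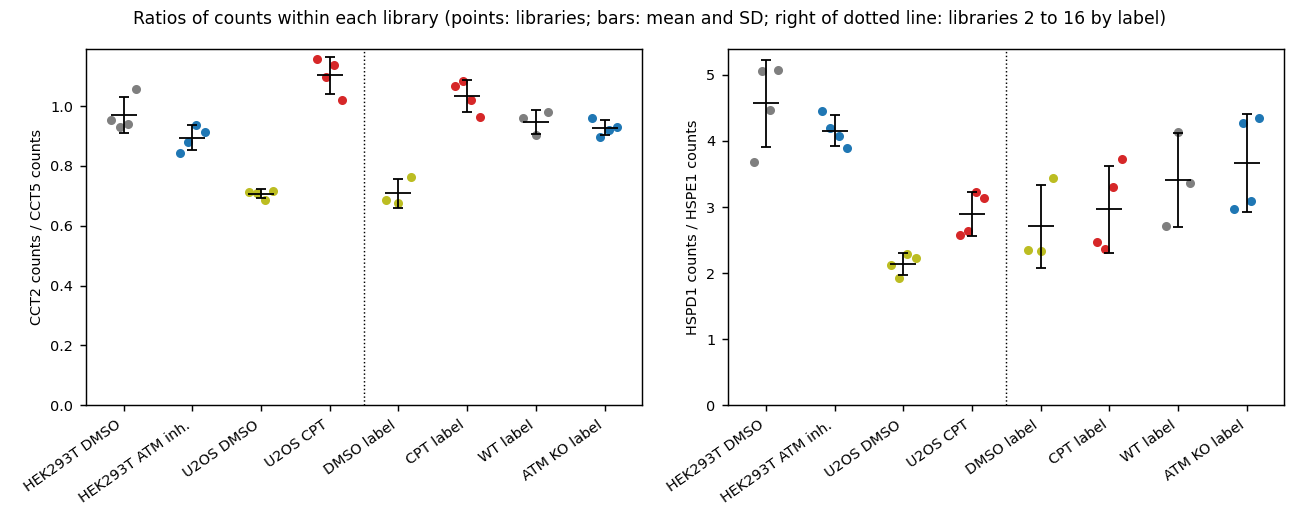
CCT2 counts per CCT5 count (left) and HSPD1 counts per HSPE1 count (right) in each library, with mean and SD by group, libraries numbered 2 to 16 standing right of the dotted line under their labels. The left ratio is 0.685 to 0.717 in U2OS DMSO and 1.02 to 1.16 in U2OS CPT, and the right ratio is 3.68 to 5.07 in HEK293T DMSO and 1.92 to 2.29 in U2OS DMSO.

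The mitochondrial pair did not pass under CPT. HSPD1 had 351, 375, 394 and 443 CPM under DMSO and 396, 404, 421 and 428 CPM under CPT (log2 fold change 0.25, SE 0.10, adjusted p = 0.0631), and passed with DESeq2 and with filterByExpr. HSPE1 went from 183 ± 23.1 to 144 ± 18.8 CPM (log2 fold change -0.17, SE 0.12, adjusted p = 0.284). HSPD1 counts per HSPE1 count were 1.92 to 2.29 under DMSO and 2.58 to 3.23 under CPT, so that these ranges did not overlap, and both lay below the HEK293T DMSO range of 3.68 to 5.07.

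Partners of the chaperonins changed under CPT in single genes. PFDN1 rose (54.0 ± 3.03 to 76.9 ± 6.94 CPM, log2 fold change 0.68, adjusted p = 4.84e-05) as the only one of 6 prefoldin genes called. Of 17 TRiC clients 3 rose and 5 fell: TUBB6 rose (log2 fold change 1.26), TUBB fell (-0.74), and CDC20, a WD40 protein that activates the anaphase-promoting complex, fell (-1.12). Of 12 genes of mitochondrial folding 2 rose and 2 fell, and of the exchange factors GRPEL1 rose (0.58) while its paralogue GRPEL2 fell (-0.53). PPIF, the cyclophilin of the matrix, rose (0.67). Of the 9 mitochondrial proteases 1 rose, and of 6 tested TRiC cofactors none was called by edgeR or DESeq2, with 1 at an unadjusted p under 0.05.

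In HEK293T cells given the ATM inhibitor, none of the 10 transcripts was called against HEK293T DMSO by edgeR, with 0 at an unadjusted p under 0.05 and 0 called by DESeq2. Over all 18413 genes tested 0% were called higher and 0.00543% lower, which is 1 gene. HSPE1 had the largest difference among members, with 118, 124, 144 and 154 CPM under the inhibitor and 104, 117, 126 and 138 CPM under DMSO (log2 fold change 0.21, SE 0.11, adjusted p = 0.894). The groups overlapped for all 10, and the share of all genes whose groups overlapped was not counted. Log2 fold changes ran from -0.06 (CCT4) to 0.21, and no 95% interval reached beyond -0.26 or 0.43. None of the companion genes (prefoldin, TRiC cofactors and clients, mitochondrial folding and proteases) was called by edgeR or by DESeq2 either, and at an unadjusted p under 0.05 there were 1 cofactor and 2 clients. The summed TRiC level was 2537 ± 128 CPM under the inhibitor and 2592 ± 134 CPM under DMSO.

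**Figure D4:**
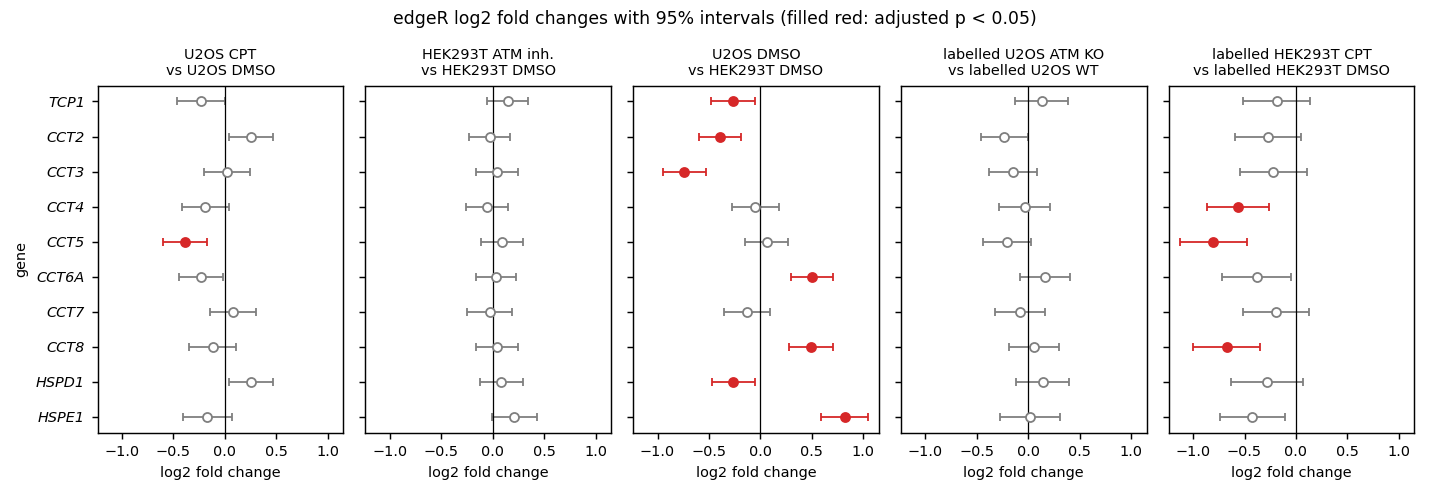
Log2 fold change (horizontal axes) with its 95% interval for each gene (vertical axis) in the 5 comparisons, filled red where the adjusted p is under 0.05. Only CCT5 is filled for U2OS CPT (-0.38), none for the ATM inhibitor or for the libraries labelled ATM KO, 7 between the cell lines, and CCT4, CCT5 and CCT8 for the libraries labelled HEK293T CPT.

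The libraries labelled U2OS ATM KO (replicates 10, 12, 14 and 16) were compared with those labelled U2OS WT that share their cell line markers (11, 13 and 15), which leaves out replicate 1. None of the 10 transcripts was called by edgeR or by DESeq2, and 1 (CCT2) had an unadjusted p under 0.05, where 15.8% of the 19271 genes tested were called higher and 16.3% lower. Among the 2045 genes over 100 CPM, 17.65% were called higher and 27.2% lower. Log2 fold changes ran from -0.23 for CCT2 (415 ± 16.2 against 475 ± 10.9 CPM, adjusted p = 0.112) to 0.16 for CCT6A (531 ± 41.6 against 461 ± 35.3 CPM, adjusted p = 0.302). Both of these sets were without overlap, as was CCT5 (408 to 475 against 486 to 514 CPM). How many of all genes lacked overlap here was not counted, so nothing about these genes is drawn from it. Under upper quartile normalization 61.6% of all calls were higher, instead of 49.2%, and none of the 10 was called there either. None was called with replicate 17 added to the controls or with labels as deposited. The CCT2 count per CCT5 count was 0.898 to 0.959 and 0.903 to 0.980, thus within one range.

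Other genes of the mitochondrial folding machinery did pass in these libraries. Of 12 such genes 7 were called lower in those labelled ATM KO and 0 higher (0 also at an unadjusted p under 0.05 and by DESeq2). Among them TRAP1, the mitochondrial HSP90, was at 64.6 ± 6.56 against 143 ± 8.35 CPM (log2 fold change -1.18, adjusted p = 6.15e-08). HSPD1 in the same libraries was at 609 to 776 against 519.7 to 639.7 CPM, with overlap (log2 fold change 0.14, SE 0.12, adjusted p = 0.409). LONP1, CLPP and OMA1 were the 3 of 9 proteases called, all lower, with log2 fold changes of -1.60, -0.75 and -1.11. TRiC clients were called in both directions (7 higher, 4 lower), led by the tubulin TUBB4B (1.09). The 2 prefoldin genes called, PFDN2 (-0.50) and PFDN4 (-0.49), were lower.

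The libraries labelled HEK293T CPT (replicates 2, 4, 6 and 8) were compared with those labelled HEK293T DMSO that share their markers (3, 5 and 7), which leaves out replicates 17 and 22 to 25. CCT5, CCT8 and CCT4 were called lower and none of the 10 was called higher by edgeR or DESeq2 (0 at an unadjusted p under 0.05), where 4.89% of the 18515 genes tested were called higher and 5.55% lower. Among the 1655 genes over 100 CPM, 5.08% were called higher and 11.5% lower. The log2 fold changes of all 10 lay below 0, from -0.80 to -0.19. Their median was -0.33, against 0.03 over all genes and -0.08 over those above 100 CPM. The CPT-labelled libraries varied widely, with summed TRiC levels of 1476, 1712, 1868 and 2562 CPM, the highest being replicate 8. Those labelled DMSO had 2358, 2420 and 2972 CPM, the highest being replicate 7.

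CCT5 had 180.4, 214, 240.1 and 335 CPM in the libraries labelled CPT and 379, 422 and 455 CPM in those labelled DMSO, with no overlap (log2 fold change -0.80, SE 0.16, adjusted p = 6.07e-04). CCT8 had 237, 263, 273 and 417 CPM against 437, 443 and 528 CPM (log2 fold change -0.67, SE 0.16, adjusted p = 0.00416). CCT4 had 158, 162, 199.6 and 201 CPM against 245, 260.0 and 287 CPM (log2 fold change -0.56, SE 0.15, adjusted p = 0.00989). The same 3 genes were called with replicate 1 added to the controls, whose markers are those of U2OS, and none was called with all 8 libraries labelled HEK293T DMSO as controls, a set that mixes libraries resembling either line. Without replicate 8, CCT6A, HSPD1 and HSPE1 were called lower as well, 6 in all, and CCT4 lost its call without replicate 6, 3 or 7. HSPE1 was also called without replicate 2. The shares of all genes called in these fits, and of all genes without overlap, are not given here.

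**Figure D5:**
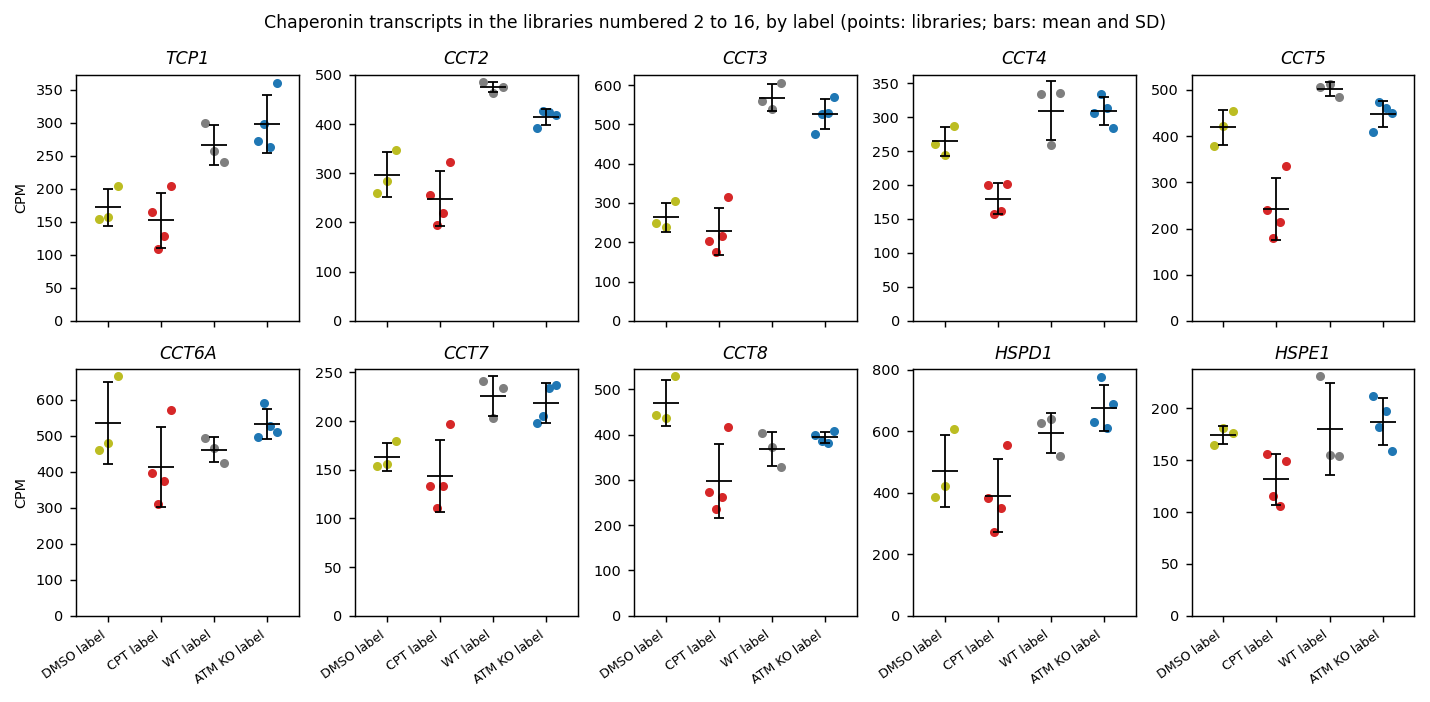
CPM of each chaperonin transcript (vertical axes, from 0) in the libraries numbered 2 to 16 by label, one point a library, with bars for mean and SD of 3 or 4 libraries. CCT5 lies between 180.4 and 335 CPM under the label HEK293T CPT and between 379 and 455 CPM under HEK293T DMSO.

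CCT2 counts per CCT5 count were 0.965 to 1.08 in the libraries labelled HEK293T CPT and 0.676 to 0.762 in those labelled HEK293T DMSO, 1.03 ± 0.0532 (n = 4) and 0.708 ± 0.0473 (n = 3). These ranges did not overlap, but in the other libraries labelled HEK293T DMSO (17 and 22 to 25) the ratio was 0.931 to 1.06, which overlaps that under the CPT label. Those other libraries have the markers of HEK293T, while the libraries labelled CPT resemble U2OS, so this comparison also crosses cell lines. Replicate 1, labelled U2OS WT and resembling U2OS, had 0.779. As the pair was chosen after its values were seen, no support is drawn from this. HSPD1 counts per HSPE1 count did overlap here, at 2.36 to 3.72 and 2.33 to 3.44. Of the companion lists edgeR called clients only, 3 higher and 3 lower of 17, with the actin ACTB (-0.77) and the tubulin TUBA1A (-1.03) lower and FZR1, another activator of the anaphase-promoting complex, higher (0.72). Of the 34 genes in the other lists 4 were higher and 5 lower at an unadjusted p under 0.05 without passing, and DESeq2 called 1 of them, a protease, higher.

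With the study's cutoff of an absolute log2 fold change over 1 none of the 10 chaperonin transcripts was called by edgeR in any of the 5 comparisons, against 2569 genes for U2OS CPT and 7872 between the cell lines.

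Across libraries 18 to 33 the TRiC subunits did not all vary together. Of 28 pairs of subunits the median Pearson correlation of log2 CPM was 0.438 within the 8 HEK293T libraries and 0.578 within the 8 U2OS libraries. TCP1 and CCT8 were the most alike in U2OS (r = 0.966), and CCT2 and CCT6A the least (r = -0.371). HSPD1 and HSPE1 had r = 0.426 in HEK293T and 0.104 in U2OS. Of 10012 genes, those whose log2 CPM followed the mean of the 8 subunits most closely over the 16 libraries were RCC1, GNB1, SLC25A5, ZMYM1 and PRUNE1, where RCC1 had r = 0.884 within HEK293T and 0.950 within U2OS. For the mean of HSPD1 and HSPE1 they were UBE2D1, CDC42, CUL3, KLHL36 and PIAS3, with UBE2D1 at r = 0.787 and 0.832. The points of a line come from 2 treatments and share their libraries, and these correlations are descriptions without a test. GNB1 is itself one of the listed clients.

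Chaperonin genes have many processed pseudogenes that could take reads from them. The table holds 59 relatives found by symbol, mostly named as pseudogenes but also HSPE1-MOB4 and CCT8L2. Of these 20 were without a count, and together they had 1127 counts, or 0.298% of the 378317 counts on the 10 genes. How reads that match both a member and a relative were counted is not given in the sources used here.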

How the data were processed

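Libraries of 3′ mRNA ends from HEK293T and U2OS cells (QuantSeq FWD kit with UMIs) were sequenced. For each of 32 libraries the authors deposited raw gene counts, without normalization, from Lexogen's pipeline for such libraries, version 2.3.1. Genome build and annotation are not given in the sources used here. Symbols and coordinates were taken from GENCODE 29 (GRCh38) for 56531 of 60107 gene identifiers. Summary rows (5) and spike-ins (92 rows, 3 counts) were left out. Of all counts in a column, 9.39% to 39.9% fell outside genes and 0.631% to 1.51% were ambiguous. Libraries held 1232674 to 6362433 counts, so that the floor of 3 counts equals 2.43 CPM in the shallowest and 0.472 CPM in the deepest library, for counting error alone.

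Groups came from the labels. Groups were compared with edgeR 4.0.16 under R 4.3.3 by its quasi-likelihood test after TMM normalization, which was also tested on simulated data. Genes were kept if 2 or more libraries of the fit had over 1 count, and calls were made at a Benjamini-Hochberg adjusted p under 0.05 over all genes tested. Intervals are 95%. P-values measure the spread between libraries, which were described as independent biological repeats. Alternatives were DESeq2 1.42.0, the likelihood ratio test of edgeR, RLE and upper quartile normalization, filterByExpr, no filter, other control sets, 1 fit of libraries 18 to 33, each library left out and, chosen after seeing the data, library totals alone. No 2 libraries of a group were alike within sampling noise (lowest chi-square per degree of freedom 1.82).

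Named were the 10 members, up to 3 genes per companion list with the largest log2 fold change among those called without overlap of groups, and the 5 genes most correlated with TRiC and with the mitochondrial pair. Members, lists and tests were chosen with earlier results of these data known.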

Additional observations from a re-analysis of the deposited data

Results flagged for a closer look

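Within the 4 libraries labelled U2OS WT, replicate 1 was far below the others for CCT2 (261.1 CPM, others 463.9 to 485.6), CCT3 (213.8 CPM, others 538.7 to 604.8) and CCT5 (335.2 CPM, others 485.5 to 513.8). By its markers replicate 1 resembles U2OS and the other libraries of this label resemble HEK293T. For HSPE1 replicate 11 was far above the others (231.4 CPM, others 139.7 to 154.8). These were 4 of 70 combinations of gene and label group tested with Dixon's gap test, of which chance flags about 1 in 20.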

How the results depend on the processing

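Of 820 member values recomputed under alternatives, 790 kept their side of the threshold, 16 came past it and 14 lost it. The sign changed in 45 cases, none of them for a called value. For U2OS CPT, 2 members (CCT2 and HSPD1) were called higher with DESeq2 and 2 with filterByExpr instead of 0. With library totals alone 6 were called lower instead of 1, a scaling that shifts the median of all genes by -0.167 on the log2 scale. That scaling called 4253 of all 19080 genes lower. Leaving out a library gave 0 to 1 called higher and 1 to 2 called lower (without replicate 31, CCT2 higher and CCT6A lower). Between the cell lines, 3 were called higher and 2 to 4 lower with a library left out. Of the libraries labelled HEK293T CPT, 2 to 6 members were called lower with a library left out, and 0 with labels as deposited. Shares of all genes called with a library left out are not given here. With an absolute log2 fold change over 1 also required, 0 were called in any comparison, in place of 1 lower for U2OS CPT, 3 higher and 4 lower between the lines and 3 lower under the label HEK293T CPT. Upper quartile normalization shifted the median of all genes by 0.105 for the libraries labelled ATM KO, and 0 members were called for these or for the ATM inhibitor under any alternative. Except where the construction of the alternative shows it, the cause was not tested. No paired analysis was run, because the replicate numbers are unique and no groups share any. Replicates 2 to 8 alternate between the labels HEK293T CPT and DMSO, and 10 to 16 between ATM KO and WT. A pairing by neighbouring number was not tested. Depth limits low genes such as CCT6B, not the 10 members.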

Other observations

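HSPD1P11, a processed pseudogene of HSPD1 on chromosome 5 (chr5:95768999-95770700 in GRCh38, plus strand), took 382 of the 1127 counts on relatives of the chaperonins. It was chosen after its values were seen. In U2OS DMSO it had 5 to 12 counts per library and in U2OS CPT 23 to 32, with no overlap (2.87 ± 1.01 and 8.28 ± 1.29 CPM, n = 4 each, edgeR log2 fold change 1.69, SE 0.28, adjusted p = 1.92e-05). HSPD1 itself did not pass there. In the libraries labelled HEK293T CPT and DMSO it was at 5.50 to 11.6 and 3.56 to 6.06 CPM (log2 fold change 0.93, SE 0.33, adjusted p = 0.0724).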
